A study of Homo sapiens with 2 samples.

Results

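Interferon-stimulated genes are the genes that a cell switches on when an interferon binds its receptors, and their products slow viruses by acting on RNA, membranes and protein modification. The set described here holds 45 such genes, chosen by name, of the 29972 human genes in the deposited table, and all 45 were found in it. The RNA came from 1 T-DM1-refractory tumour and 1 untreated tumour of NCI-N87, an established human gastric carcinoma line with amplified HER2, both grown under the skin of nude mice, which lack T cells. T-DM1 (trastuzumab emtansine) is an antibody to HER2 that carries a microtubule poison, and per the labels the treated mice received it at intervals of 3 weeks over 18 weeks. Each tumour is 1 library, so no difference has a replicate check, and neither a test across samples nor a p-value was computed. The refractory library held 59902712 counts and the untreated library 75722114. The epithelial keratins KRT8, KRT18 and KRT19 stood between 922 and 1827 CPM (counts scaled to a common depth and for library composition) in the refractory tumour and between 1215 and 3204 CPM in the untreated tumour. KRT8 and KRT18 were lower in the refractory tumour, whereas KRT19 hardly differed (1640 CPM refractory, 1659 CPM untreated). The epithelial marker CLDN4 was lower in the refractory tumour too (188.5 CPM refractory, 253.1 CPM untreated). EPCAM (785 CPM refractory, 471 CPM untreated) and CDH1 (817 CPM refractory, 589 CPM untreated) were higher.

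Type I interferons signal through a receptor made of IFNAR1 and IFNAR2. The receptor's kinases phosphorylate STAT proteins, among them STAT2, which with IRF9 form a complex that binds a short DNA element, the interferon-stimulated response element, in front of its target genes. Many of the targets are also expressed without infection in epithelial cells and tumours, at a level set by low, continuous signalling.

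The element has 2 copies of GAAA set 2 bases apart. It was searched on both strands, overlapping matches included, in the RefSeq promoter windows of build GRCh38.p14, which run from 250 bases before to 50 bases after an annotated transcript start. Windows were found for 36 of the 45 genes. Of these 36, 25 (69.4%) held at least 1 match in a window, against 4.38% of all 27305 genes of that table. With a C added after the second copy, the counts were 20 of 36 genes (55.6%) and 0.952% of all genes. The element of interferon gamma signalling, searched as TTC and GAA set 3 bases apart, was in a window of 11 of the 36 genes, against 9.38% of all genes. A match is a run of letters and not a measured binding site. Shown here, on each gene's own strand with the matches in capitals (written as TTTC where the match is on the other strand), are the windows of 4 genes that were over 2-fold lower in the refractory tumour, EPSTI1 (chr13:42992192-42992491, minus strand), SAMD9 (chr7:93117930-93118229, minus), IFIT5 (chr10:89414318-89414617, plus) and ISG15 (chr1:1013247-1013546, plus), and of 3 genes that were not, IFI6 (chr1:27672143-27672442, minus), HERC5 (chr4:88456869-88457168, plus) and DTX3L (chr3:122564088-122564387, plus).
EPSTI1: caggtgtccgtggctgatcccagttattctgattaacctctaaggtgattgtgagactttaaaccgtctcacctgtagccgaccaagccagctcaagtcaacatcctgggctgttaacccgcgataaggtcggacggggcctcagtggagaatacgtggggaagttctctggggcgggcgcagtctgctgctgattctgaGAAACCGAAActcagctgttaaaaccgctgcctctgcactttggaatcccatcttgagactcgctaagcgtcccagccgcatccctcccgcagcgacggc
SAMD9: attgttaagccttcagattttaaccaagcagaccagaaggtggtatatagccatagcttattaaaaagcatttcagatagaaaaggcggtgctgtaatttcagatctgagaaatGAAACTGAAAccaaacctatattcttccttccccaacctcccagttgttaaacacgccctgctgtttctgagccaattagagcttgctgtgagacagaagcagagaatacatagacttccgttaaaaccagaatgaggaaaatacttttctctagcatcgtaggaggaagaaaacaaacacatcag
IFIT5: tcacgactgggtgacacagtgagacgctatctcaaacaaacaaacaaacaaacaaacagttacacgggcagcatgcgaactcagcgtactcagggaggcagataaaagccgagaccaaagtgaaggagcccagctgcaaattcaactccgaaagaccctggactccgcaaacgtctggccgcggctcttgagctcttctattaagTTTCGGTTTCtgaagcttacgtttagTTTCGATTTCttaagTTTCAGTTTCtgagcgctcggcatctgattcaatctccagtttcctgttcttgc
ISG15: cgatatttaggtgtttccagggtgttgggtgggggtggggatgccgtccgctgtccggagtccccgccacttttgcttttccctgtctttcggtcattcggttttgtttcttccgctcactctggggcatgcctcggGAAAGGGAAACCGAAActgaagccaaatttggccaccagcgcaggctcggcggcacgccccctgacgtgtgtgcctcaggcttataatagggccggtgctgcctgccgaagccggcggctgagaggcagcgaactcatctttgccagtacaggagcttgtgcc
IFI6: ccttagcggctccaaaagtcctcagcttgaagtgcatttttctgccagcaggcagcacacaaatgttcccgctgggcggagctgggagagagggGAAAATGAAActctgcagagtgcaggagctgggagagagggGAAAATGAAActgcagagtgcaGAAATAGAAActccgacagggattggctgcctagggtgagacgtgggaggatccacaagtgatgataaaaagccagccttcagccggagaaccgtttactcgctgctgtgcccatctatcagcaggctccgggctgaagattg
HERC5: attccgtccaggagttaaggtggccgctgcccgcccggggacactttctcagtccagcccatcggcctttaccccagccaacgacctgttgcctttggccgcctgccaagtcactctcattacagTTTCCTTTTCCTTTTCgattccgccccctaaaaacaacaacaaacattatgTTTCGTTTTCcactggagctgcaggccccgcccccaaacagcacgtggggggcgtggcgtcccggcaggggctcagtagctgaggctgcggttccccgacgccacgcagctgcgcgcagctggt
DTX3L: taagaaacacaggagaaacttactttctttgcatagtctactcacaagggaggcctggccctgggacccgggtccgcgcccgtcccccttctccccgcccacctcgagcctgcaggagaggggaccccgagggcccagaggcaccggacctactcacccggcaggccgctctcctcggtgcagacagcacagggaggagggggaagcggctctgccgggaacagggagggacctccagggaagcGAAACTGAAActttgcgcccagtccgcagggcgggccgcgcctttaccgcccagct

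In EPSTI1 the match begins 50 bases before the start and in SAMD9 136 bases before it. IFIT5, IFI6 and HERC5 held 3 matches each, of which 2 overlap in HERC5, and ISG15 held 2 that overlap. The windows of DTX3L and of one PARP9 transcript, which run in opposite directions, shared 137 bases, and both took their single match from the same 10 bases.

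As a set, the genes were lower in the refractory tumour. Calls were made at 2-fold in CPM once 1 CPM had been added to both libraries, which understates the change of low genes. By that rule 16 of the 45 genes (35.6%) were lower, against 11.0% of the 14167 genes whose higher library reached 1 CPM. In the other direction 1 of the 45 (2.22%) was higher, against 9.80% of those genes, and 28 lay between. The median log2 of refractory over untreated was -0.42 for the 45 genes and 0.03 for all 14167. Below 0 were 35 of the 45 genes (77.8%), against 48.1% of all. The summed level of the 45 was 4905 CPM in the refractory and 7732 CPM in the untreated tumour. All 45 passed the minimum of 1 CPM in both libraries, with between 96 and 64263 counts each. For 33 genes the exact 95% interval of the ratio lay below 1, for 8 above 1, and for 4 it held 1. These intervals cover counting error only, not differences between tumours. The matching shares of all 14167 genes were not computed, so these interval counts do not set the 45 genes apart from others. In bulk RNA, fewer cells that express a gene and less of its RNA per cell cannot be told apart.

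**Figure D1:**
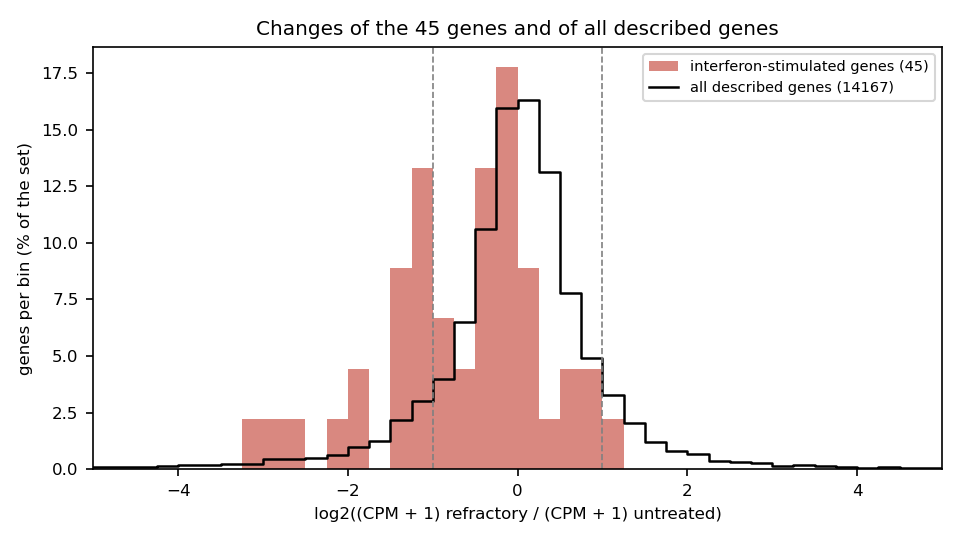
Distribution of log2((CPM + 1) refractory / (CPM + 1) untreated), in bins of 0.25, as a percentage of the 45 interferon-stimulated genes (filled bars) and of all 14167 described genes (black line); dashed lines mark 2-fold. Of the 45 genes, 16 lie below -1 and 1 lies above 1.

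Per unit of transcript length, on the FPKM scale (fragments per kilobase of transcript and per unit of depth), the genes spanned a wide range in both tumours. IFI27, a small hydrophobic membrane protein gene, was the highest in each, at 476 FPKM in the refractory and 566 FPKM in the untreated tumour. It was followed in the refractory tumour by IFITM3 (291 FPKM), LGALS3BP (203 FPKM), IFI44 (148 FPKM) and IFI6 (126 FPKM). In the untreated tumour IFI44 (316 FPKM), BST2 (290 FPKM), IFITM3 (248 FPKM) and LGALS3BP (211 FPKM) came next. The lowest were TRIM22, at 0.572 FPKM in the refractory tumour, and IRF7, at 3.89 FPKM in the untreated tumour. With 1 library each, the order of near neighbours in these rankings has no measure of spread.

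**Figure D2:**
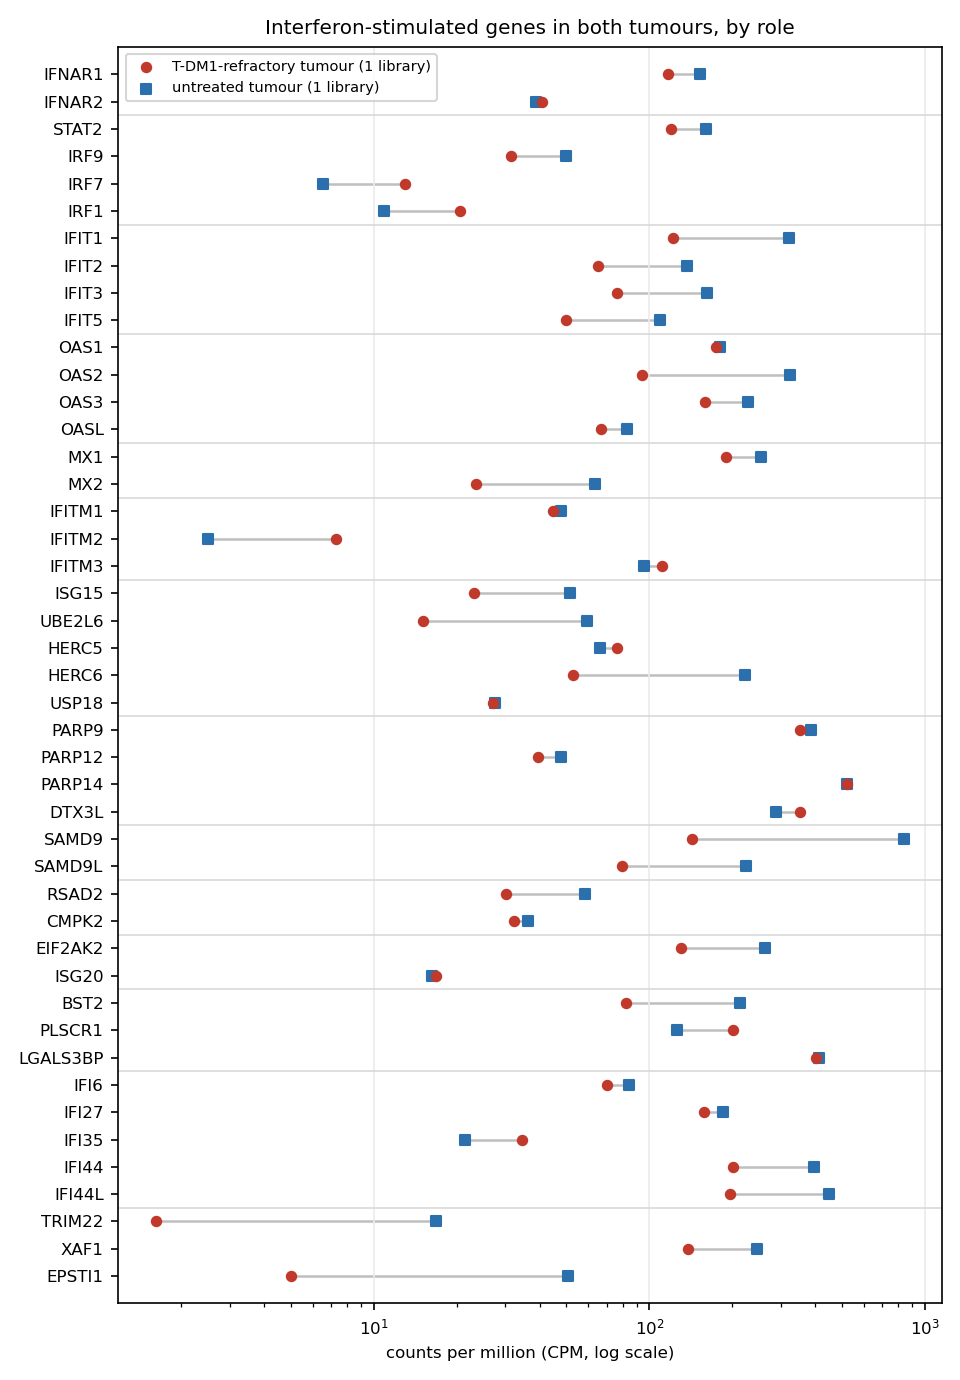
CPM (log axis) of each of the 45 genes in the T-DM1-refractory tumour (red circles) and in the untreated tumour (blue squares), 1 library each, grouped by role with thin lines between groups. The widest gaps are those of TRIM22, EPSTI1 and SAMD9. The receptor, transcription factor, IFITM and PARP groups and the pair of RSAD2 and CMPK2 hold no gene that was 2-fold lower.

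The receptor genes differed little. IFNAR1 stood at 117 CPM in the refractory and 153 CPM in the untreated tumour (ratio 0.766, 95% interval 0.743 to 0.789). IFNAR2, the chain with the main signalling tail, stood at 40.7 CPM in the refractory and 38.9 CPM in the untreated tumour, with an interval that held 1 (0.992 to 1.11). Neither passed 2-fold.

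Of the transcription factors, STAT2 and IRF9 were on the low side and the inducible interferon regulatory factors on the high side, none past 2-fold. STAT2 stood at 120 CPM in the refractory and 161 CPM in the untreated tumour (ratio 0.744). IRF9, its DNA-binding partner, stood at 31.5 CPM in the refractory and 49.6 CPM in the untreated tumour (ratio 0.635). IRF7, which amplifies interferon alpha production, stood at 13.0 CPM in the refractory and 6.55 CPM in the untreated tumour, a ratio of 1.98 (95% interval 1.77 to 2.22). IRF1, a factor best known downstream of interferon gamma, stood at 20.5 CPM in the refractory and 10.9 CPM in the untreated tumour (ratio 1.89, 95% interval 1.73 to 2.06).

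The 4 IFIT genes, whose tetratricopeptide proteins bind viral RNA, were all called lower. They lie in a cluster on chromosome 10. IFIT1 stood at 122 CPM in the refractory and 321 CPM in the untreated tumour, 2.63-fold lower, with a 95% interval of the ratio of 0.371 to 0.391. IFIT5 was 2.19-fold lower (49.8 CPM refractory, 109 CPM untreated), IFIT3 2.13-fold lower (76.0 CPM refractory and 162 CPM untreated) and IFIT2 2.11-fold lower (64.9 CPM refractory and 137 CPM untreated). Their folds were close to each other, and 3 of the 4 lay just past the 2-fold line.

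The oligoadenylate synthetases, which make the second messenger that activates the antiviral ribonuclease RNase L, differed from each other in size of change, with 1 of 4 called lower. OAS1, OAS2 and OAS3 are neighbours on chromosome 12. OAS2 was 3.44-fold lower (94.4 CPM in the refractory and 325 CPM in the untreated tumour, 95% interval 3.34 to 3.54). OAS3 stood at 159 CPM in the refractory and 227 CPM in the untreated tumour (ratio 0.698), and OAS1 at 174 CPM refractory and 181 CPM untreated (ratio 0.962). OASL, a related protein without synthetase activity in humans, stood at 67.0 CPM in the refractory and 82.7 CPM in the untreated tumour (ratio 0.810). The dynamin-like GTPase genes, adjacent on chromosome 21, also differed. MX2, a factor against retroviruses, was 2.71-fold lower (23.5 CPM in the refractory and 63.7 CPM in the untreated tumour, 95% interval 2.55 to 2.88). MX1, known for its block of influenza virus, stood at 190 CPM in the refractory and 254 CPM in the untreated tumour (ratio 0.747).

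Within the ISG15 system, in which a ubiquitin-like protein is joined to other proteins, 3 of 5 genes were called lower. These were the modifier, its conjugating enzyme and HERC6, but not HERC5 or the protease USP18. The share lower among all described genes was 11.0%, and 5 genes are too few to set against it. ISG15 itself stood at 23.2 CPM in the refractory and 51.6 CPM in the untreated tumour, 2.23-fold lower (95% interval 2.09 to 2.37). UBE2L6, the conjugating enzyme, was 3.92-fold lower (15.1 CPM refractory, 59.3 CPM untreated, 95% interval 3.65 to 4.22). HERC5, the main ISG15 ligase of human cells, stood at 76.4 CPM in the refractory and 66.1 CPM in the untreated tumour (ratio 1.16). HERC6, its neighbour on chromosome 4 and the main ISG15 ligase of the mouse, was 4.2-fold lower (52.9 CPM refractory, 222 CPM untreated, 95% interval 4.04 to 4.36). USP18, which removes ISG15 and also damps signalling at IFNAR2, stood at 27.1 CPM in the refractory and 27.5 CPM in the untreated tumour, with an interval that held 1 (0.923 to 1.05).

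SAMD9 and SAMD9L, neighbours on chromosome 7 that encode large cytoplasmic proteins restricting poxviruses and cell growth, were both called lower. SAMD9, which had the most counts of the 45 genes (64263, in the untreated library), stood at 143 CPM in the refractory and 841 CPM in the untreated tumour, 5.89-fold lower (95% interval 5.76 to 6.02). SAMD9L was 2.82-fold lower (79.5 CPM refractory, 224 CPM untreated, 95% interval 2.73 to 2.91).

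None of the PARP group passed 2-fold. PARP14, a mono-ADP-ribosyltransferase, stood at 520 CPM in the refractory and 521 CPM in the untreated tumour (ratio 0.998, 95% interval 0.983 to 1.01). PARP9, a family member with macrodomains, stood at 351 CPM in the refractory and 387 CPM in the untreated tumour (ratio 0.905). DTX3L, the ubiquitin ligase that works as a dimer with PARP9, stood at 351 CPM in the refractory and 287 CPM in the untreated tumour (ratio 1.22). PARP12, also a mono-ADP-ribosyltransferase, stood at 39.5 CPM in the refractory and 47.6 CPM in the untreated tumour (ratio 0.829). PARP9, DTX3L and PARP14 lie together on chromosome 3, and PARP9 and DTX3L had the same count, 20795, in the refractory library.

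The IFITM genes, on chromosome 11, encode membrane proteins that hinder the fusion of viruses with the cell. IFITM1 stood at 44.5 CPM in the refractory and 47.6 CPM in the untreated tumour (ratio 0.935), and IFITM3 at 111 CPM refractory and 95.4 CPM untreated (ratio 1.16). IFITM2 was the 1 gene called higher, at 7.30 CPM in the refractory and 2.50 CPM in the untreated tumour, 2.92-fold (95% interval 2.46 to 3.48). Its expected counts were not whole (432.91 refractory and 190.91 untreated), and neither were those of IFITM3 (6587.09 refractory and 7292.09 untreated), whereas the sum of both genes was whole (7020 refractory and 7483 untreated), so reads had been divided between this pair of near-identical genes. Counted together they stood at 118 CPM in the refractory and 97.9 CPM in the untreated tumour, a ratio of 1.21 (95% interval 1.17 to 1.25), and no gene was then called higher. Most of the joint count came from IFITM3, so the joint ratio lies near that of IFITM3. It cannot show whether IFITM2 itself differed, and the fractions do not show how many reads were divided.

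RSAD2 (viperin), an enzyme that makes a chain-terminating nucleotide, stood at 30.3 CPM in the refractory and 58.3 CPM in the untreated tumour (ratio 0.520, 95% interval 0.492 to 0.549). CMPK2, the adjacent nucleotide kinase gene on chromosome 2, stood at 32.2 CPM in the refractory and 36.4 CPM in the untreated tumour (ratio 0.884). EIF2AK2 (PKR), the kinase that stops translation when double-stranded RNA is present, was just past the threshold at 2.02-fold lower (130 CPM refractory, 262 CPM untreated, 95% interval 1.96 to 2.07). It was no longer called with 5 CPM added in place of 1. ISG20, an RNA exonuclease, stood at 16.9 CPM in the refractory and 16.3 CPM in the untreated tumour, with an interval that held 1 (0.951 to 1.13).

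BST2 (tetherin), which holds budding viruses at the cell surface, was 2.58-fold lower (82.3 CPM in the refractory and 212 CPM in the untreated tumour, 95% interval 2.50 to 2.66). PLSCR1, a phospholipid scramblase, stood higher in the refractory tumour, at 201 CPM against 126 CPM in the untreated tumour (ratio 1.60, 95% interval 1.56 to 1.65). LGALS3BP, a secreted glycoprotein that binds galectins, stood at 404 CPM in the refractory and 414 CPM in the untreated tumour (ratio 0.977). Of the IFI genes, IFI44L was 2.28-fold lower (196 CPM refractory, 447 CPM untreated). Its neighbour IFI44, at 202 CPM in the refractory and 396 CPM in the untreated tumour, had a ratio of 0.509 and was not called. IFI6, which protects the endoplasmic reticulum and mitochondria, stood at 70.0 CPM in the refractory and 84.1 CPM in the untreated tumour (ratio 0.832), and IFI27 at 158 CPM refractory and 184 CPM untreated (ratio 0.855). IFI35, a leucine zipper protein, stood at 34.5 CPM in the refractory and 21.4 CPM in the untreated tumour (ratio 1.61).

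The deepest differences belonged to a pair of single genes. EPSTI1, first found in epithelial cells grown with stroma (chromosome 13, coding start 42888249 and end 42992165 in the authors' deposited table), was 10.1-fold lower, at 5.01 CPM in the refractory and 50.8 CPM in the untreated tumour (95% interval 9.01 to 11.5). TRIM22, a ubiquitin ligase that restricts retroviruses (chromosome 11, coding start 5696232 and end 5709648 in the authors' deposited table), was 10.4-fold lower, at 1.62 CPM in the refractory and 16.8 CPM in the untreated tumour (95% interval 8.42 to 12.9), with 96 counts in the refractory library. XAF1, a partner of the apoptosis inhibitor XIAP, stood at 138 CPM in the refractory and 246 CPM in the untreated tumour (ratio 0.563). In the authors' deposited table EPSTI1, TRIM22 and SAMD9 were the 3 of 45 genes with a p-value under 0.05 (0.00457 for EPSTI1, 0.00446 for TRIM22 and 0.0247 for SAMD9), all lower. Of the 14167 described genes, 5.88% were lower at that p in the authors' table. The 3 of 45 are close to that share and do not set the genes apart. Those p-values compare 1 library with 1.

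Genes with and without the response element had the same median change. The 25 genes with a match in a window had a median log2 of -0.42 and ranged from -3.11 (EPSTI1) to 0.68 (PLSCR1). The 11 genes without one had a median of -0.42 and ranged from -2.05 (HERC6) to 0.86 (IRF1). Matches were found in 9 of the 12 genes called lower that had a window and in 16 of the 24 that lay between. UBE2L6, HERC6 and SAMD9L were called lower with no match in their windows, while IFI6, with 3 matches, and IFITM1, with 2, were not called. IFITM2, IFIT2, OAS2, OASL, MX2, TRIM22, IRF7, USP18 and IFNAR2 are not in the promoter table.

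**Figure D3:**
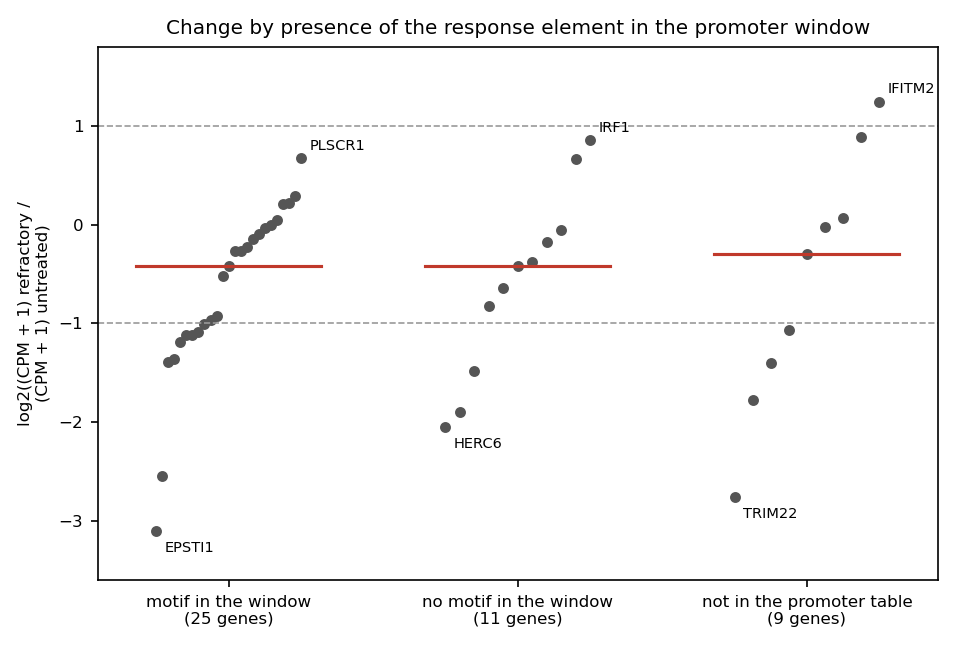
log2((CPM + 1) refractory / (CPM + 1) untreated) of each of the 45 genes (points, sorted within a column), by whether the response element was found in a RefSeq promoter window; red bars are medians and dashed lines mark 2-fold. The columns with and without the motif both have their median at -0.42 and both reach below -2.

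Levels along the chromosome differed between the tumours in places, so each gene was set beside its surroundings, as the median log2 of the 20 nearest described genes with at least 5 CPM. That local median ranged from -0.62 around BST2 on chromosome 19 to 1.06 around IFI6 on chromosome 1, and its own median over the 45 genes was 0.01. After it was subtracted, 12 of the 45 genes were 2-fold lower, against 11.0% of the genes with a local median, and 0 were 2-fold higher, against 7.27%. The median over the 45 genes was then -0.73. IFIT2, IFIT3, IFIT5, EIF2AK2 and BST2 were no longer called lower on that scale, and BST2 stood at -0.73. IFI6 joined the lower genes, at -1.32. The genes around the IFITM cluster had a median of 0.64 and those around PARP9, DTX3L and PARP14 a median of 0.63. On the subtracted scale IFITM3, at -0.42, and DTX3L, at -0.34, were on the low side. TRIM22, with a local median of 0.43, and ISG15, with 0.34, were lower where their neighbours were higher. This subtraction was chosen after the data were seen. Copy number was not measured, and its part in these values was not tested.

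**Figure D4:**
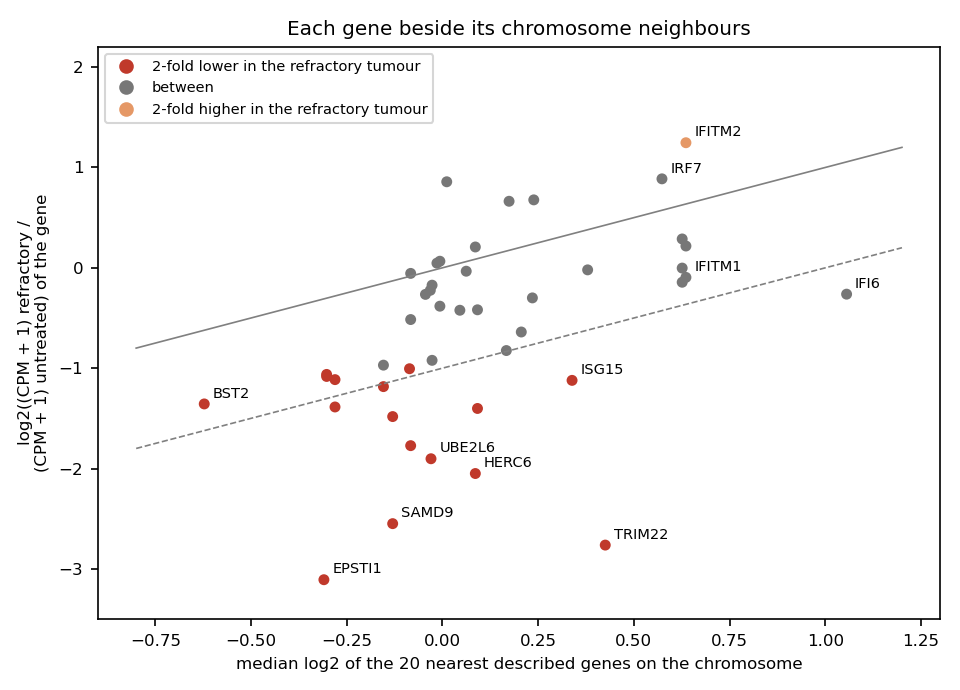
log2((CPM + 1) refractory / (CPM + 1) untreated) of each of the 45 genes (vertical axis) against the median log2 of its 20 nearest described genes (horizontal axis); the solid line marks equality and the dashed line a level 2-fold below the neighbours. Points below the dashed line include EPSTI1, TRIM22, SAMD9, HERC6, UBE2L6, ISG15 and IFI6, while BST2 lies above it.

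Upstream of these genes, the 2 described ligand transcripts were lower. Of 22 interferon genes, 2 reached 1 CPM in a library and 12 had 0 counts in both. IFNE, the interferon epsilon made constitutively by epithelium of the reproductive tract, stood at 2.36 CPM in the refractory and 46.4 CPM in the untreated tumour, 19.7-fold lower (95% interval 16.6 to 23.4). IFNA1 had 6 counts in the refractory and 155 in the untreated library (20.1-fold lower, 95% interval 9.00 to 55.5), and it shares sequence with the other interferon alpha genes, among which reads can be divided. The described genes nearest to both on chromosome 9 were also on the low side, with local medians of -1.01 for IFNE and -1.13 for IFNA1. With 1 CPM added, the log2 was -3.82 for IFNE and -1.46 for IFNA1. IFNB1 had 2 counts in the refractory and 4 in the untreated library, and IFNG had 0 in both.

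Other receptors, kinases and STAT3 were set beside the members. IFNGR1, the ligand-binding chain of the interferon gamma receptor, was 2.56-fold higher (255 CPM refractory, 99.9 CPM untreated, 95% interval 2.49 to 2.63). IFNGR2 stood at 66.8 CPM in the refractory and 54.8 CPM in the untreated tumour, IL10RB at 62.7 CPM refractory and 56.5 CPM untreated, and IFNLR1, the interferon lambda receptor, at 22.8 CPM refractory and 12.1 CPM untreated. Among the kinases JAK1 stood at 317 CPM in the refractory and 186 CPM in the untreated tumour (ratio 1.70). TYK2, the kinase bound to IFNAR1, stood at 26.6 CPM in the refractory and 46.7 CPM in the untreated tumour (ratio 0.569), and JAK2 at 13.6 CPM refractory and 25.6 CPM untreated (ratio 0.533). Their neighbours were on the low side too, with local medians of -0.70 around TYK2 and -0.99 around JAK2. STAT3 stood at 94.6 CPM in the refractory and 76.9 CPM in the untreated tumour.

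**Figure D5:**
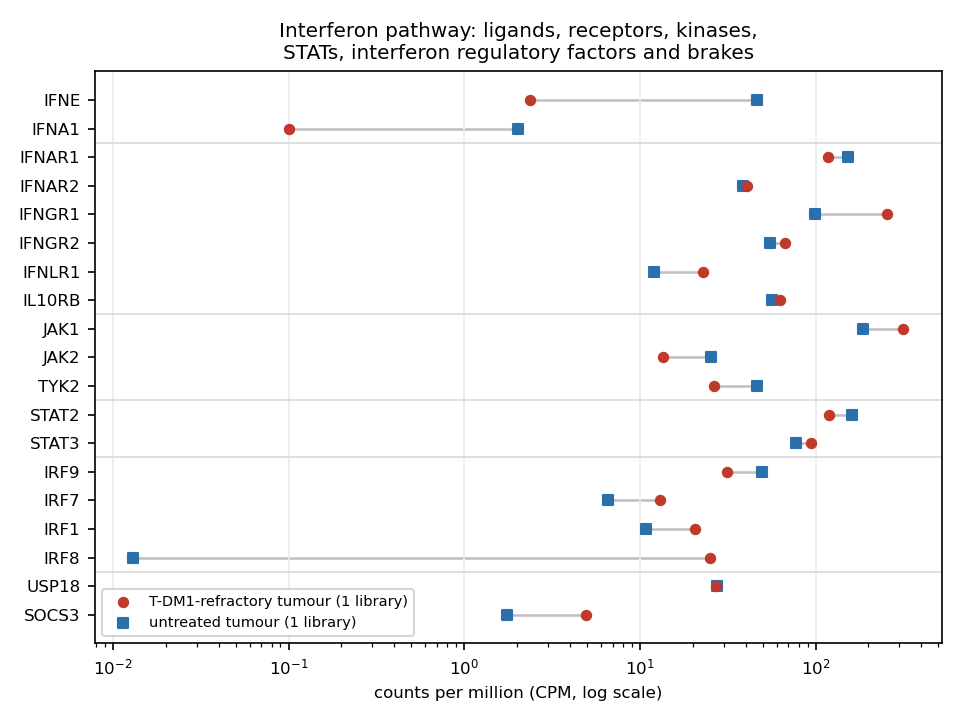
CPM (log axis) of selected genes of the interferon pathway in the T-DM1-refractory tumour (red circles) and the untreated tumour (blue squares), 1 library each, with ligands at the top, then receptors, kinases, STATs, interferon regulatory factors and brakes. IFNE and IFNA1 lie lower in the refractory tumour, IFNGR1, IRF8 and SOCS3 lie higher, and IFNAR2 and USP18 nearly coincide.

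Among 7 brakes on the pathway, 6 were described, 1 was higher and 0 were lower. SOCS3 stood at 4.94 CPM in the refractory and 1.75 CPM in the untreated tumour (ratio 2.82, 95% interval 2.29 to 3.48), and the phosphatase PTPN11 at 357 CPM refractory and 405 CPM untreated. SOCS1 was under 1 CPM in both tumours. Of the other interferon regulatory factors 5 of 6 were described, 1 higher and 0 lower. Among all described genes 9.80% were higher and 11.0% lower, and both lists are too short to set against those shares. IRF8, a factor of blood cell development that interferon gamma also induces, had 1495 counts in the refractory and 1 count in the untreated library (25.2 CPM refractory and 0.0131 CPM untreated, ratio 1927, 95% interval 345 to 76150).

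Interferon gamma targets were less deeply covered. Of 13, 9 were described, with 2 lower, 0 higher and a median log2 of -0.49. Among all described genes 11.0% were lower and 9.80% higher, and 9 genes are too few to set against those shares. GBP4, a guanylate-binding protein gene, was 3.19-fold lower (9.32 CPM in the refractory and 29.8 CPM in the untreated tumour), and CIITA, the master regulator of MHC class II, stood at 0.944 CPM refractory and 4.13 CPM untreated. GBP3 stood at 120 CPM in both tumours. Of 30 described interferon-stimulated genes outside the set of 45, 2 were lower, 2 higher and 26 between, with a median log2 of -0.22, so their share called lower was below the 11.0% of all described genes. The lower pair was C19orf66 and DDX60. C19orf66, an inhibitor of viral RNA translation, was 3.22-fold lower (12.8 CPM refractory, 41.2 CPM untreated), and DDX60, a helicase linked to RNA sensing, was 2.25-fold lower (285 CPM refractory and 641 CPM untreated). ADAR, the RNA-editing enzyme, stood at 423 CPM in the refractory and 573 CPM in the untreated tumour. APOL2 and its neighbour APOL1, apolipoprotein genes, were higher, APOL1 at 147 CPM in the refractory and 36.7 CPM in the untreated tumour (95% interval of the ratio 3.83 to 4.17).

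Markers of other human cell types were few. Among the 12 leukocyte markers, CD3E, MS4A1 and CLEC4C had 0 counts in both libraries. The pan-leukocyte gene PTPRC stood at 0.287 CPM in the refractory and 0.0654 CPM in the untreated tumour. The list summed to 130 CPM in the refractory and 31.8 CPM in the untreated tumour, most of it from LYZ (95.9 CPM refractory and 27.2 CPM untreated) and CD68 (29.2 CPM refractory and 3.62 CPM untreated), so it was higher in the tumour in which the interferon-stimulated genes were lower, and its part in the result was not tested. Fibroblast markers summed to 2.11 CPM refractory and 2.97 CPM untreated and endothelial markers to 0.287 CPM refractory and 2.60 CPM untreated. The table names human genes, and the share of reads from mouse host cells was not measured here.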

How the data were processed

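RNA was sequenced from both tumours with TruSeq mRNA libraries, per the labels' protocols. The submitters' processing notes list edgeR 3.26.8, RSEM 1.2.28, STAR 2.7.0e and bcl2fastq 2.20, together with the builds GRCh38 and GRCm38, without roles. Annotation and treatment of mouse reads are, in the sources used here, not stated. The authors deposited expected counts per gene, which are estimated and not all whole, and FPKM, per the file headers. The authors' deposited log2 fold change and p-value were used only where named.

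Expected counts were rounded and scaled with TMM factors (edgeR 4.0.16, R 4.3.3; 0.9904 for the refractory and 1.0097 for the untreated library) to CPM. A gene was described at 1 CPM or more in the higher library and called at 2-fold after 1 CPM was added. Ratios have no added CPM and have exact Clopper-Pearson 95% intervals, conditional on the summed count (scipy 1.17.1). The calculation was tested on simulated data. Alternatives were 3 other scalings, added values of 0.1 and 5 CPM, no filter, a 10 CPM filter, FPKM and thresholds of 1.5-fold and 4-fold.

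The 45 genes and all lists were chosen with earlier results of these data known. Every one of the 45 is reported. Of each other list, the gene with the highest CPM was named, with the largest called change each way, and the receptors, kinases and STATs; some of these genes are not reported here. IFNB1, IFNG, SOCS1, GBP3 and the cell type markers were named after their values were seen. By an older symbol, 1 gene (C19orf66) was matched in RefSeq.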

Additional observations from a re-analysis of the deposited data

How the results depend on the processing

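Across the other scalings, added values, filters, the FPKM scale and the subtraction of local medians, between 12 and 17 of the genes were lower at 2-fold and the median log2 lay between -0.73 and -0.41. The share of all genes lower at 2-fold lay between 5.19% (no filter) and 13.5% (0.1 CPM added). All 16 genes called lower kept their sign under each of these alternatives, and 11 stayed past 2-fold under each. Filters leave a gene's own value unchanged, and an added value cannot change its sign. The other scalings shift all genes by nearly the same small amount, so genes past 2-fold could hardly change sign under them. The kept signs thus rest mainly on the FPKM scale and the local medians. The median with local medians subtracted was -0.73. At 4-fold, 4 of the 45 genes were lower, against 3.56% of all described genes, and 0 were higher, against 2.54%. At 1.5-fold, 20 of the 45 were lower, against 18.9%, and 5 were higher, against 19.4%. The single higher gene, IFITM2, was not called with 5 CPM added or after local medians were subtracted. It was left out by the 10 CPM filter and merged into a count mostly of IFITM3 in the joint count. Each case leaves 0 higher, but the filter and the joint count do not show whether IFITM2 itself differed. Of 404 recomputed values of single genes, 61 moved beyond their counting interval and 0 changed sign against a called direction. The 404 include the filter settings, under which no value can move. Among the genes not called, OAS1, IFITM3, DTX3L and ISG20 did change sign, each keeping it under 8 of 9 alternatives. Those 9 include the filters and added values, which could not change a sign. The local medians, the joint count and the longer motif were chosen after the data were seen.

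No paired analysis was possible because each group has 1 library. There is likewise no fit without a library. Depth limited TRIM22 most, with 96 counts in the refractory library, and the interferon ligands, most of which had few or no counts.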
